A study of Arabidopsis thaliana with 36 samples.

Results

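Levels of 10 genes of the jasmonate pathway are described, given as a list of loci, with no value as a criterion, from the 27444 genes of the deposited table, in which all 10 were found. LOX2 (AT3G45140), AOS (AT5G42650), AOC1 (AT3G25760) and OPR3 (AT2G06050) encode enzymes of jasmonate synthesis, JAZ1 (AT1G19180), JAZ5 (AT1G17380), JAZ9 (AT1G70700) and JAZ10 (AT5G13220) encode repressors, MYC2 (AT1G32640) encodes a transcription factor, and VSP2 (AT5G24770) is an output gene. Messenger RNA was measured by strand-specific, poly(A)-selected RNA-seq of Arabidopsis thaliana roots and mature rosette leaves. All plants grew hydroponically with 200 µM phosphate (Pi) and were then given 200 µM or 0 µM Pi for 24 h. WT was the accession Col-0, KO was a ppsr1 T-DNA knockout, and OE was 1 overexpression line of AtPPSR1 that the submitters call representative, so a line effect and a transgene effect cannot be told apart in OE. The sample labels name no other ppsr1 allele, so a line effect and loss of PPSR1 cannot be told apart in KO either. The 2 organs, 3 genotypes and 2 Pi levels gave 12 groups of 3 libraries, 36 in all, labelled as independent biological replicates. The level of PPSR1 itself was not analysed here, so the genotype labels were not checked against the targeted gene.

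Jasmonate is made from plastid linolenic acid, which lipoxygenases such as LOX2 oxygenate, allene oxide synthase (AOS) and allene oxide cyclases (AOC) turn into OPDA, and the peroxisomal reductase OPR3 carries towards jasmonic acid. Its isoleucine conjugate joins the receptor COI1 to JAZ proteins, which are then degraded and release MYC2, a bHLH factor that binds the G-box. Several JAZ genes are themselves induced by jasmonate, and in leaves the pathway is known for its response to wounding and insects, with VSP2, a vegetative storage protein, as a common reporter.

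Depth, estimated from the steps between low values, was 6670000 to 13190000 reads per leaf library and 2070000 to 11770000 per root library. Levels are FPKM, which are scaled by gene length, with mean ± SD over n = 3 libraries. Changes are differences of log2(FPKM + 1), which understate the change of low genes, and a call means a limma p, adjusted over all tested genes by the Benjamini-Hochberg method, under 0.05. Of the leaf marker genes RBCS1A, LHCB1.3, LHCB2.1 and PSBO1, mean root levels were 1.39% to 2.70% of the leaf level, and the root markers CASP1, COBL9, EXPA7 and PRX64 were called higher in WT root than in WT leaf. In 4 libraries genes with a coding length over 4000 bases stood low, by a median of 0.761 to 1.13 on the log2 scale against the middle of their organ: WT leaf replicate 2 at 200 µM, WT leaf replicate 1 at 0 µM, OE leaf replicate 1 at 0 µM and WT root replicate 2 at 200 µM.

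Upstream sequence is shown for LOX2, AOS and JAZ9, which were lower in root than in leaf and whose windows hold a motif. AOC1 and OPR3, also lower in root, held none in theirs and are not shown. Each window holds the 250 bases before the annotated gene start in TAIR10.1, 5′ to 3′ on the gene's strand, with the G-box CACGTG or its variants CACATG and CATGTG, searched on both strands, in capitals. The windows lie at chr3:16524995-16525244 on the plus strand for LOX2, chr5:17099596-17099845 on the minus strand for AOS and chr1:26654279-26654528 on the plus strand for JAZ9.
LOX2: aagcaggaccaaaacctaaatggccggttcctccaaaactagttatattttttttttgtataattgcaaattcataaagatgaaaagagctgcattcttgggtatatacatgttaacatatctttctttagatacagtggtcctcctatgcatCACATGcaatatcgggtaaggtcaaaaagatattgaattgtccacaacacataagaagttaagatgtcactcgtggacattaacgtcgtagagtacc
AOS: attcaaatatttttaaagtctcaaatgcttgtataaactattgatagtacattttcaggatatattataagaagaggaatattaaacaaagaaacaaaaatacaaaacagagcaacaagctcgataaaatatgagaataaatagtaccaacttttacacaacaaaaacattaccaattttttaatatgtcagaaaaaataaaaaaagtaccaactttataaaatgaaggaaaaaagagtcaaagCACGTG
JAZ9: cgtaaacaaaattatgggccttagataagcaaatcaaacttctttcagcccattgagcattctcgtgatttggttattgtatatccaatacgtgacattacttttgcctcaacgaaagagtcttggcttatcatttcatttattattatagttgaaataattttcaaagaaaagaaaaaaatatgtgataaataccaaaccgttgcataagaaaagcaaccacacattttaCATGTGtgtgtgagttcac
The G-box stood only in the AOS window among the 10 genes, where its first base was 6 bases before the gene start, and 6.49% of 27443 such windows of annotated genes held it. A variant was found in LOX2 (97 bases before the start), JAZ9 (19 bases) and JAZ10 (65 bases), against 11.1% of all windows. In all, 4 of the 10 windows held either form, against 16.6% of all windows. The LOX2, AOS and JAZ9 windows were picked for holding a form of the motif, so that they hold it is not a result.

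Within this pathway the largest differences lay between the organs of WT plants: the synthesis genes and JAZ9 were higher in leaf, and JAZ1 was higher in root. At 200 µM Pi, 3 of the 10 genes were called higher and 5 lower in root than in leaf, and at 0 µM Pi 2 were higher and 5 lower, where 69.7% and 73.4% of all 19327 genes tested were called. The median change over all genes was 0.67 at 200 µM and 0.79 at 0 µM as deposited, and 0.19 and 0.14 with median-of-ratios scaling. The median over the 10 genes was −0.50 and −0.57. In bulk tissue, fewer cells of a type and less RNA per cell cannot be told apart.

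LOX2, a plastid 13-lipoxygenase, was the most abundant member in leaf. WT leaf libraries held 639.6, 253.5 and 515.7 FPKM at 200 µM and 463.4, 688.0 and 742.7 FPKM at 0 µM, while the WT root libraries held 0, 0.06 and 0.2 FPKM and 0.43, 0 and 0.19 FPKM. Every leaf library was thus over 250 FPKM and every root library under 1 FPKM, with 9 of the 18 root libraries of all genotypes at 0. The 3 WT root libraries together held 8 reads at 200 µM and 13 at 0 µM, which puts leaf over root at 4843-fold (95% Poisson interval 2458 to 11220) and 2607-fold (1525 to 4897). The interval covers counting error in root only. On the log2 scale with the pseudocount the changes were −8.66 (SE 0.25, limma adjusted p = 2.2e-22) and −9.02 (SE 0.25, adjusted p = 8.1e-23). Mean root LOX2 was 0.0144% of its leaf level, below the 1.39% to 2.70% of the leaf markers.

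AOC1, an allene oxide cyclase, was likewise close to 0 in root. WT leaf held 85.4, 65.8 and 48.8 FPKM at 200 µM and 95.5, 29.6 and 49.7 FPKM at 0 µM, and the 3 WT root libraries held 1 read in all at each Pi level. That is a leaf to root ratio of 1563 (95% Poisson interval 280.6 to 61750) at 200 µM and 888.7 (159.5 to 35100) at 0 µM. AOC1 was at 0 in 13 of 18 root libraries. It shares 6.94% of its 31-base coding words with AOC3, so reads shared by the pair are uncertain.

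AOS, the cytochrome P450 that makes allene oxide, was present in root at a lower level. WT leaf held 221.5, 324.2 and 221.5 FPKM at 200 µM and 359.4, 141.9 and 166.2 FPKM at 0 µM, against 17.1, 28.4 and 12.9 and 18.5, 24.0 and 24.4 FPKM in root. The organs did not overlap, and the change was −3.69 (SE 0.39, limma adjusted p = 1.1e-09) and −3.15 (SE 0.39, adjusted p = 2.5e-08). OPR3 differed least among the enzymes, with 59.3, 52.3 and 58.0 FPKM in leaf libraries of WT and 26.0, 26.0 and 20.5 FPKM in root libraries at 200 µM. Its change was −1.20 (SE 0.27, limma adjusted p = 2.2e-04) at 200 µM and −1.29 (SE 0.27, adjusted p = 8.5e-05) at 0 µM, and the organs did not overlap at either Pi level. All 4 synthesis genes kept these calls under every alternative setting tried.

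The JAZ repressors did not share an organ. JAZ9 was higher in leaf, with 106.3, 138.2 and 116.3 FPKM in leaf of WT plants and 13.4, 14.1 and 14.6 FPKM in their roots at 200 µM. At 0 µM WT leaf held 339.3, 135.4 and 145.7 FPKM and WT root 12.9, 8.94 and 15.1 FPKM. Organs did not overlap, and JAZ9 changed by −3.01 (SE 0.39, limma adjusted p = 7.3e-08) and −3.86 (SE 0.39, adjusted p = 4.9e-10). JAZ1 ran the other way, with 19.8, 8.90 and 9.44 FPKM in leaf and 59.4, 58.8 and 133.4 FPKM in root of WT at 200 µM. At 0 µM leaf JAZ1 was 13.3, 14.1 and 14.9 FPKM and root JAZ1 57.1, 79.7 and 74.5 FPKM. All root libraries thus stood above all leaf libraries, with changes of 2.61 (SE 0.30, limma adjusted p = 7.4e-09) and 2.23 (SE 0.30, adjusted p = 1.4e-07).

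JAZ5 and JAZ10 had the lowest leaf levels of the members. JAZ5 was 3.07, 2.01 and 2.36 FPKM in leaf and 6.04, 3.19 and 13.03 FPKM in root of WT at 200 µM, called at 1.11 (SE 0.43, limma adjusted p = 0.024). The call was lost with median-of-ratios scaling (0.69, adjusted p = 0.169) and without WT leaf replicate 2 (1.01, adjusted p = 0.0734), WT leaf replicate 3 (1.09, adjusted p = 0.0525) or WT root replicate 3 (0.65, adjusted p = 0.207). At 0 µM JAZ5 was not called (0.23, 95% interval −0.65 to 1.12), and its sign turned with that scaling. JAZ10 was not called at 200 µM (0.58, 95% interval −0.54 to 1.70) or 0 µM (0.15, −0.96 to 1.27, with a negative sign under that scaling), and the organs overlapped. These 2 genes rested on 7 to 83 reads (JAZ5) and 0 to 67 reads (JAZ10) per leaf library.

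MYC2 was 46.6, 41.6 and 47.5 FPKM in leaf and 41.04, 58.4 and 57.7 FPKM in root of WT at 200 µM. At 0 µM leaf MYC2 was 69.7, 17.4 and 25.01 FPKM and root MYC2 43.3, 42.5 and 51.97 FPKM. The organs overlapped and MYC2 was not called, with 0.19 (95% interval −0.57 to 0.95) at 200 µM and 0.53 (−0.23 to 1.29) at 0 µM, values whose sign turned with median-of-ratios scaling. Without WT leaf replicate 1 at 0 µM, where MYC2 was 69.7 FPKM, the 0 µM change was 1.10 (limma adjusted p = 0.00708). VSP2, the storage protein gene, was higher in root than in leaf in WT: 138.1, 38.8 and 166.2 FPKM in leaf against 265.8, 235.2 and 399.4 FPKM in root at 200 µM, with no overlap. The change was 1.59 (SE 0.52, limma adjusted p = 0.00785), and 1.39 (SE 0.52, adjusted p = 0.0178) at 0 µM. With median-of-ratios scaling VSP2 lost both calls (1.06, adjusted p = 0.083, and 0.69, adjusted p = 0.277). It also lost them without WT leaf replicate 2 at 200 µM (0.94, adjusted p = 0.117), without the libraries low in long genes at 200 µM (1.10, adjusted p = 0.0639), without WT leaf replicate 3 at 0 µM (1.03, adjusted p = 0.105) and without WT root replicate 1 at 0 µM (1.16, adjusted p = 0.0769). VSP2 shares 7.29% of its 31-base coding words with VSP1, so reads shared by the pair are uncertain.

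**Figure D1:**
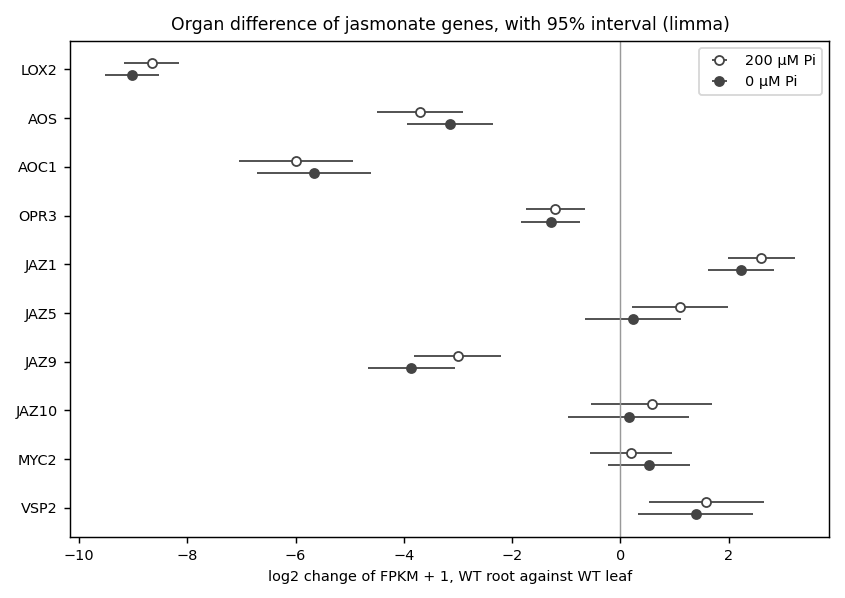
Difference of log2(FPKM + 1) between WT root and WT leaf for the 10 genes, at 200 µM Pi (open) and 0 µM Pi (filled), with 95% limma intervals from 3 libraries per group. LOX2, AOC1, AOS, JAZ9 and OPR3 lie left of 0 (lower in root), JAZ1 and VSP2 right of it, and the intervals of JAZ10 and MYC2, and of JAZ5 at 0 µM, include 0.

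Among 50 other jasmonate genes, 47 could be tested between WT organs, of which 18 were called higher and 14 lower in root at 200 µM, and 20 and 15 at 0 µM. These are 38.3% higher and 29.8% lower at 200 µM, where 51.3% and 18.5% of all genes were, and 42.6% and 31.9% at 0 µM, where 56.1% and 17.3% were. Of 13 other synthesis and conjugation genes, 3 were higher and 7 lower in root at both Pi levels. Of 17 genes of perception, repression and transcription, 8 were higher and 2 lower at 200 µM, and 11 and 3 at 0 µM. Turnover genes counted 4 higher and 1 lower of 9 at both Pi levels, and output genes 3 higher and 4 lower of 8 at 200 µM, and 2 and 4 at 0 µM. The 4 smallest adjusted p-values at 200 µM belonged to the cyclase AOC2 (−7.30, SE 0.37), the cystine lyase CORI3 (−7.69, SE 0.44), the lipoxygenase LOX3 (−2.92, SE 0.21) and the chlorophyllase CLH1 (−5.59, SE 0.43), with limma adjusted p between 7.6e-17 and 9.4e-13. At 0 µM they were AOC2 (−6.86), CORI3 (−7.37), the repressor JAZ4 (4.29, SE 0.28) and LOX3 (−3.01), with limma adjusted p between 3.0e-16 and 1.5e-13. CORI3 and LOX3 were close to 0 in root, so their fitted changes depend on the pseudocount.

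Of the 4 cyclase genes, AOC1 and AOC2 were higher in leaf and AOC3 in root, with AOC3 and AOC4 set beside AOC1 and AOC2 after their values were seen. In WT at 200 µM AOC2 was 516.7 ± 41.3 FPKM in leaf and 2.30 ± 0.47 in root, and AOC3 was 4.26 ± 3.97 in leaf and 49.9 ± 3.33 in root. AOC3 was thus the cyclase called higher in root (3.66, SE 0.43, limma adjusted p = 8.9e-09). AOC4 was 74.1 ± 21.01 FPKM in leaf and 96.1 ± 32.05 in root and was not called (0.36, 95% interval −0.19 to 0.91, with a negative sign under median-of-ratios scaling). The repressor gene JAZ4 was 0.54 ± 0.24 FPKM in leaf and 20.1 ± 9.28 FPKM in root of WT at 200 µM.

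Within each organ, no member was called in any of the 18 comparisons of Pi level or line. These made 162 tests, 10 genes in leaf and 8 in root, since LOX2 and AOC1 fell below the mean of 1 FPKM needed in root. The limma adjusted p ranged from 0.122 to 1, and 8 tests were under 0.05 before adjustment. Over all genes, 428 to 2405 of 16489 per comparison in leaf and 923 to 3851 of 19166 in root were under 0.05 before adjustment. The median change over all genes was off 0 by more than 0.1 in 5 of these comparisons as deposited: 0.15 for the Pi response of KO leaf, −0.10 for KO against WT leaf at 200 µM, 0.12 for the KO interaction in leaf, 0.13 for the Pi response of WT root and 0.12 for OE against WT root at 200 µM. With median-of-ratios scaling these were all between −0.04 and 0.02, and no member was called under it. Ordered by mean, neighbouring groups differed by no more than the larger of their SDs in 48 of 50 gaps in leaf and 48 of 50 in root. Sorting itself makes such gaps small, and the root count includes LOX2 and AOC1. The count therefore does not bear on whether groups differ, and no share over all genes was computed.

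**Figure D2:**
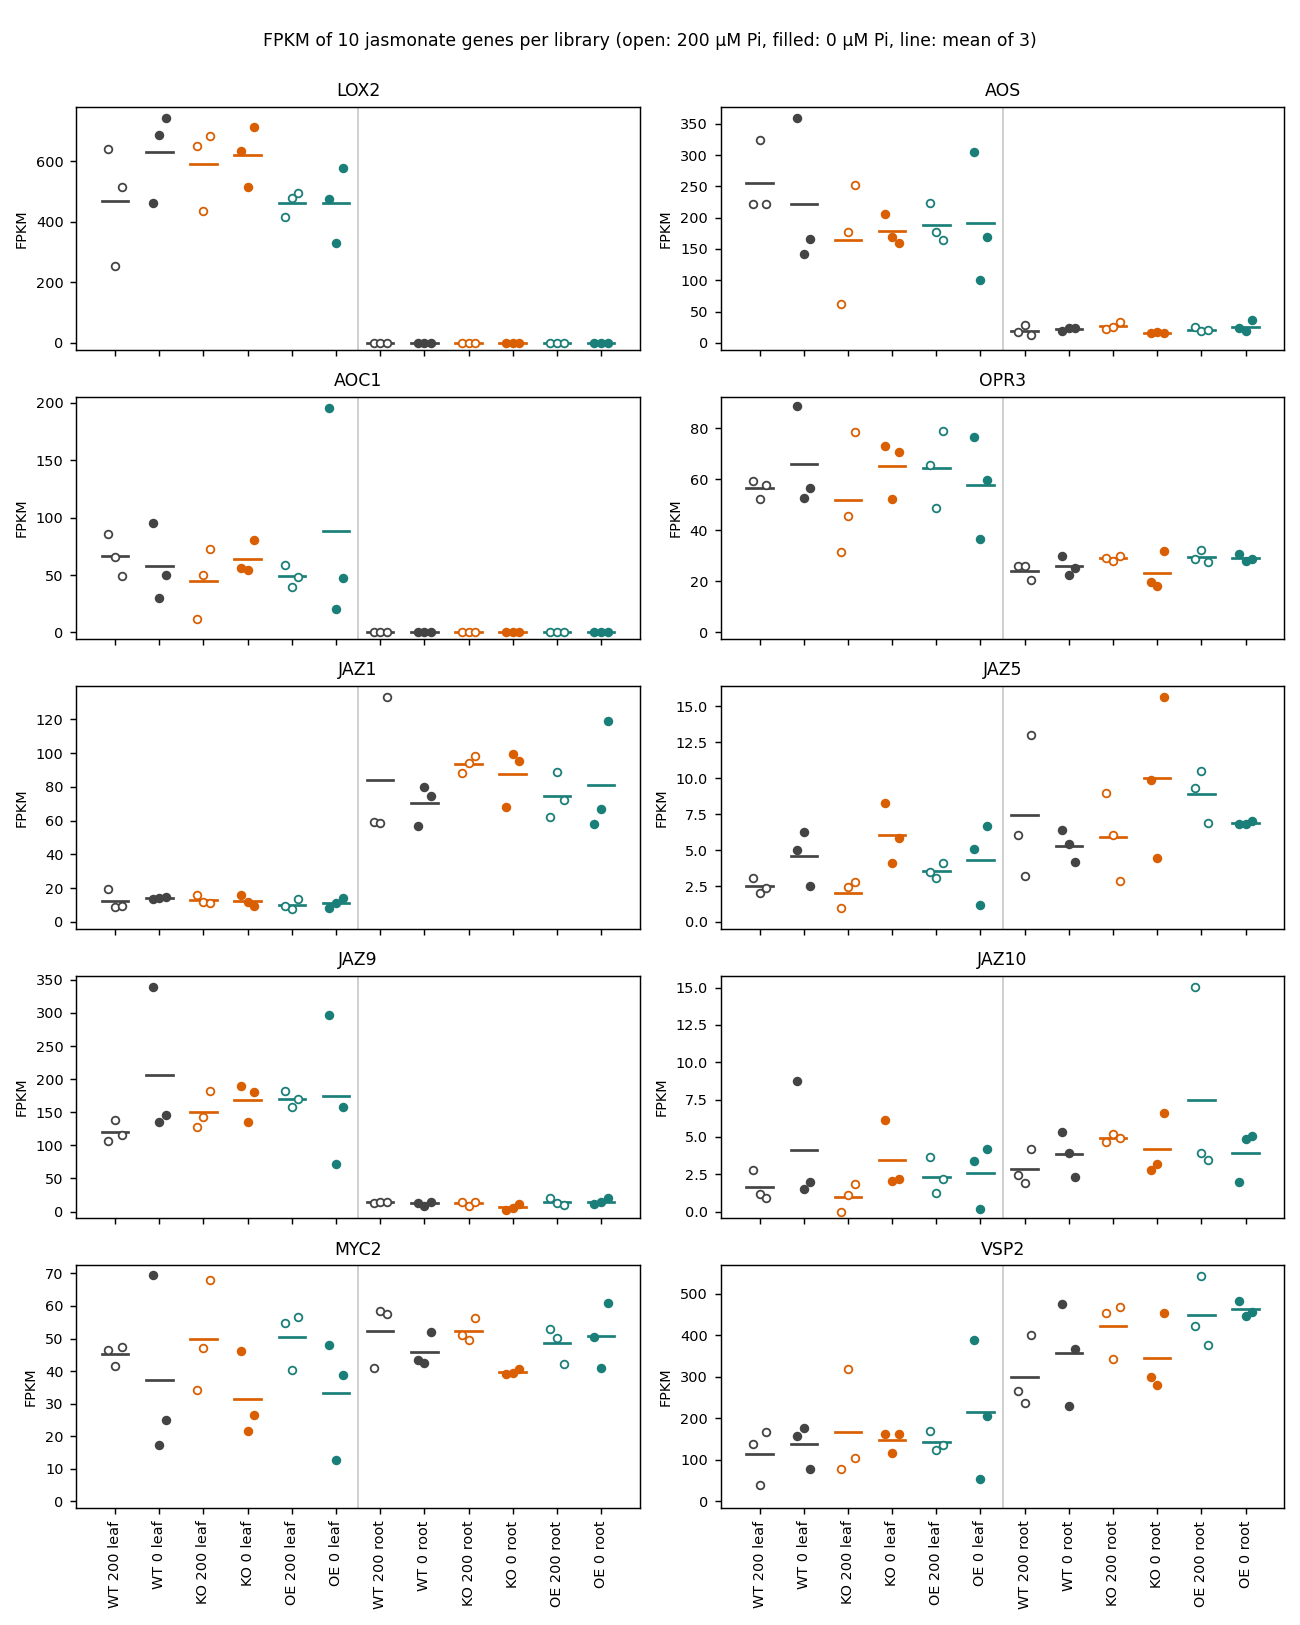
FPKM of the 10 genes in each of the 36 libraries, by genotype, Pi level and organ (open 200 µM, filled 0 µM, line the mean of 3 libraries). LOX2 and AOC1 are near 0 in all root groups, leaf groups spread more than root groups for MYC2 and OPR3, and single libraries stand high in JAZ9 and AOC1 leaf groups.

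Removal of Pi for 24 h gave no call for these genes in leaf of any genotype. Shares of all 16489 genes called were 0.00606% in WT, 1.1% in KO and 0.801% in OE. The 4 synthesis genes changed by −0.31 to 0.50 in WT, 0.09 to 0.80 in KO (LOX2, at 0.09, turned negative with median-of-ratios scaling) and −0.19 to 0.26 in OE, all with limma adjusted p of 0.563 or more. LOX2 in WT (0.50, SE 0.30) and AOC1 in KO (0.80, SE 0.66) lay farthest from 0, and were 0.11 without WT replicate 2 and 0.05 without KO replicate 1 at 200 µM.

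JAZ5 and JAZ10 were the 2 members whose KO leaf groups did not overlap between Pi levels, as for 22.5% of all genes. KO leaf JAZ5 was 0.95, 2.43 and 2.76 FPKM at 200 µM and 8.24, 4.09 and 5.86 FPKM at 0 µM. Every 0 µM library was thus above every 200 µM library, with a difference of 1.23 (SE 0.42, limma adjusted p = 0.184), while the median over all genes in that comparison was 0.15. The 10 touch and rapid stress genes followed beside the members had a median of 1.03 there, with 4 under 0.05 before adjustment and none called, and their part in the JAZ5 and JAZ10 values was not tested. Over all 16489 genes, 2405 were under 0.05 before adjustment in that comparison. In WT leaf JAZ5 was 3.07, 2.01 and 2.36 FPKM and then 4.98, 6.23 and 2.48 FPKM (0.62, SE 0.42, limma adjusted p = 0.797), and in OE leaf 3.50, 3.07 and 4.09 and then 5.04, 1.18 and 6.68 FPKM (0.04, SE 0.42, adjusted p = 1). The highest library of all, KO at 0 µM, held 83 reads and the lowest, KO at 200 µM, 7.

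JAZ10 in KO leaf was 0, 1.09 and 1.83 FPKM at 200 µM and 6.12, 2.08 and 2.17 FPKM at 0 µM. The library at 0 allows up to 0.504 FPKM by counting error (3 reads). The difference was 1.19 (95% interval −0.09 to 2.46, limma adjusted p = 0.387), and WT (0.74) and OE (−0.10) had limma adjusted p of 0.807 and 1. KO leaf replicate 1 at 200 µM, the lowest for both genes, also had the most genes at 0 (9488) of the leaf libraries. Without it the KO differences were 0.93 for JAZ5 and 0.76 for JAZ10.

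JAZ1 and JAZ9 were not called in leaf either. JAZ9 was highest in WT replicate 1 at 0 µM (339.3 FPKM) and OE replicate 1 at 0 µM (296.4 FPKM), both among the libraries low in long genes. The part of that feature in JAZ9 was not tested. Pi changes of JAZ9 were 0.65 in WT, 0.16 in KO (with a negative sign under median-of-ratios scaling) and −0.18 in OE, the WT value being 0.23 without replicate 1 at 0 µM, and those of JAZ1 0.23, −0.07 and 0.16.

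MYC2 had the lower mean at 0 µM in leaf of all 3 genotypes, and none was called. Leaf MYC2 was 46.6, 41.6 and 47.5 FPKM at 200 µM and 69.7, 17.4 and 25.01 FPKM at 0 µM in WT. In KO it was 34.2, 47.1 and 68.1 and then 46.1, 21.7 and 26.6 FPKM, and in OE 54.9, 40.3 and 56.5 and then 48.2, 12.6 and 38.9 FPKM. The groups overlapped in each genotype, through replicate 1 at 0 µM. Changes were −0.51 (95% interval −1.51 to 0.49) in WT, −0.66 (−1.66 to 0.34) in KO and −0.77 (−1.77 to 0.23) in OE, with limma adjusted p of 0.822, 0.533 and 0.765. Without replicate 1 at 0 µM the change was −1.08 in WT (limma adjusted p = 0.231) and −1.13 in OE (adjusted p = 0.38), still not called, while without replicate 2 at 0 µM it was −0.11 in WT and −0.20 in OE. VSP2 leaf changes were 0.42 in WT, 0.08 in KO, whose sign turned with that scaling, and 0.19 in OE, with 95% intervals that spanned more than a log2 unit on either side of them.

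In root the Pi response of KO held the members nearest to a call, with 3 of 8 under 0.05 before adjustment, and WT and OE showed none. Over all 19166 genes, 3771 in KO, 3851 in WT and 1136 in OE were under 0.05 before adjustment. Shares called were 1.96% of 19166 genes in WT, 3.53% in KO and 0.235% in OE. AOS and MYC2 were lower in every KO root library at 0 µM than at 200 µM, as 26.2% of all genes did not overlap. KO root AOS was 22.0, 24.6 and 33.3 FPKM at 200 µM and 15.9, 16.9 and 15.4 FPKM at 0 µM (−0.68, SE 0.26, limma adjusted p = 0.162). WT root AOS was 17.1, 28.4 and 12.9 and then 18.5, 24.0 and 24.4 FPKM (0.25, SE 0.26, limma adjusted p = 0.64). The interaction, which tests whether KO and WT responded differently, was −0.92 for AOS (SE 0.37, limma adjusted p = 0.353). In the authors' deposited table AOS was the only member called in any of the 6 Pi responses: its KO root ratio of 0 µM over 200 µM was 0.6, with an adjusted p of 0.0136, where 4.62% of all genes were called.

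KO root MYC2 was 51.1, 49.5 and 56.4 FPKM at 200 µM and 39.1, 39.5 and 40.7 FPKM at 0 µM, a change of −0.39 (SE 0.17, limma adjusted p = 0.22). WT root MYC2 was 41.04, 58.4 and 57.7 and then 43.3, 42.5 and 51.97 FPKM, which overlapped (−0.17, SE 0.17, limma adjusted p = 0.606). The authors' deposited table gave MYC2 in KO root a ratio of 0.76 with an adjusted p of 0.0596.

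JAZ9 had the smallest limma adjusted p of any member within an organ, 0.122, for −1.02 (SE 0.36) in KO root. The libraries were 14.9, 8.87 and 13.8 FPKM at 200 µM and 2.67, 5.16 and 11.4 FPKM at 0 µM, which overlapped. Low KO values came from replicates 1 and 2 at 0 µM, which were shallow, with 2700000 and 3270000 reads in all and 6 and 14 reads on JAZ9, and replicate 3 had 7730000 and 73. Without replicate 3 the change was −1.48 and passed (limma adjusted p = 0.0244), and without replicate 1 it was −0.60 (adjusted p = 0.382). The authors' deposited table gave JAZ9 in KO root a ratio of 0.51 with an adjusted p of 0.212. JAZ9 changes in WT and OE root were −0.20 and 0.05.

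The other root members, OPR3, JAZ1, JAZ5, JAZ10 and VSP2, changed by −0.35 to 0.63 in KO root, with limma adjusted p of 0.305 or more. In OE root all 8 lay between −0.58 and 0.25, with limma adjusted p of 0.948 or more. Of the 8 members, 1 was positive in KO root and the median was −0.33, against 0.09 over all genes, while in WT root 4 were positive, 3 with median-of-ratios scaling where OPR3 turned (median −0.03 against 0.13) and in OE root 5 (0.05 against 0.04).

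**Figure D3:**
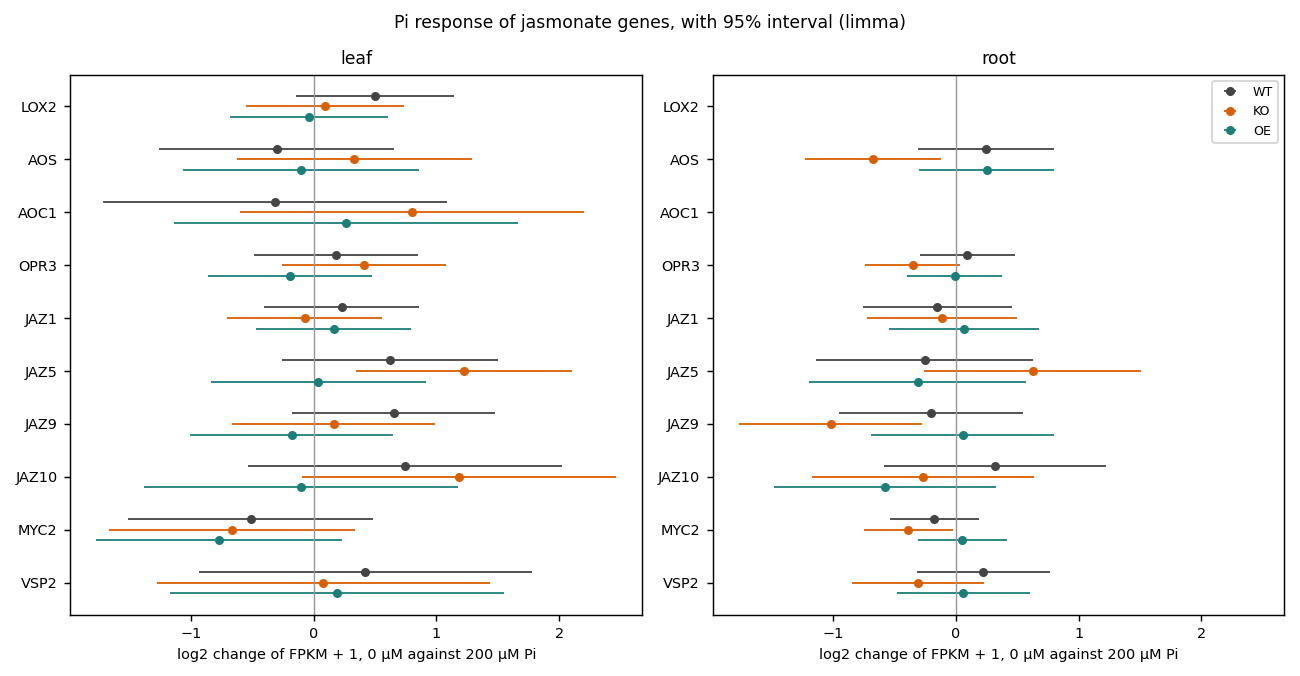
Difference of log2(FPKM + 1) between 0 µM and 200 µM Pi for the members in leaf and root of WT, KO and OE, with 95% limma intervals from 3 libraries per group; LOX2 and AOC1 were not tested in root. JAZ5 in KO leaf and AOS, JAZ9 and MYC2 in KO root have intervals that exclude 0 before adjustment, and none was called after it.

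Neither line differed from WT by a call in these genes at either Pi level. In leaf the shares of all genes called for KO against WT were 0.873% at 200 µM and 0.0364% at 0 µM, with 0.127% for the KO interaction, and for OE 0.382% at 200 µM, 0.0303% at 0 µM and 0.352% for the interaction. At 200 µM KO leaf AOS was 61.7, 177.1 and 252.7 FPKM against 221.5, 324.2 and 221.5 FPKM in WT (−0.84, 95% interval −1.79 to 0.12, limma adjusted p = 0.424). The lowest of these came from KO replicate 1, the library with the most genes at 0, and without it the difference was −0.25. JAZ9 in OE leaf at 200 µM was 182.1, 157.7 and 170.2 FPKM against 106.3, 138.2 and 116.3 in WT, with no overlap, as for 17.5% of all genes (0.50, SE 0.39, limma adjusted p = 0.868). At 0 µM, leaf members differed by −0.20 to 0.37 in KO and −0.49 to 0.32 in OE, each with a limma adjusted p of 1.

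In root the shares called were 0.0313% at 200 µM and 0.0522% at 0 µM for KO, and 0.0417% and 0.0678% for OE. Neither root interaction held a called gene in limma, although 2245 genes for KO and 923 for OE were under 0.05 before adjustment. Without WT root replicate 1 at 200 µM the calls at 200 µM went from 6 to 922 genes for KO and from 8 to 361 for OE, and those of the KO interaction from 0 to 153. OPR3 and JAZ10 at 200 µM did not overlap between KO and WT root, with 12.2% of all genes. KO root OPR3 was 29.3, 28.0 and 30.0 FPKM against 26.0, 26.0 and 20.5 FPKM (0.27, SE 0.19, limma adjusted p = 0.556), and KO root JAZ10 was 4.68, 5.17 and 4.95 FPKM against 2.48, 1.91 and 4.19 FPKM (0.66, SE 0.43, adjusted p = 0.525). These JAZ10 levels rested on 17, 23 and 17 reads in KO and 13, 15 and 31 in WT. At 0 µM KO root AOS and MYC2 lay below WT in every library, with 18.7% of all genes not overlapping, at −0.44 (limma adjusted p = 0.52) and −0.20 (adjusted p = 0.676). JAZ9 was −0.999 (SE 0.36, limma adjusted p = 0.273) there, and −0.58 without KO replicate 1. The Pi response of KO and this comparison share the KO libraries at 0 µM.

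OE root at 200 µM had OPR3 at 28.7, 32.3 and 27.5 FPKM, above every WT library, as for 15.5% of all genes not overlapping (0.28, SE 0.19, limma adjusted p = 0.535). JAZ10 was 15.04, 3.89 and 3.43 FPKM in these libraries and VSP2 422.1, 542.6 and 376.7 FPKM, both overlapping WT. Their differences were 0.91 (SE 0.43, limma adjusted p = 0.402) and 0.59 (SE 0.26, adjusted p = 0.363), and without OE replicate 1 the JAZ10 difference was 0.31. At 0 µM OE root JAZ5 was 6.84, 6.83 and 7.02 FPKM against 6.38, 5.41 and 4.16 in WT, without overlap, as for 14.2% of all genes (0.34, SE 0.42, limma adjusted p = 0.937). These JAZ5 levels rested on 30, 47 and 12 reads in OE and 46, 24 and 20 in WT. All 4 leaf markers had positive OE minus WT differences in root, with a median of 0.74 at 200 µM and 1.15 at 0 µM (0.12 and 0.03 over all genes), none called, and 3 of them under 0.05 before adjustment at 0 µM. All 4 were positive in KO minus WT root too, with a median of 0.49 at 200 µM and 0.31 at 0 µM. The medians over all genes were −0.005 and −0.05 there, and no leaf marker was called or under 0.05 before adjustment. The part of the leaf markers in the root values of either line was not tested.

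**Figure D4:**
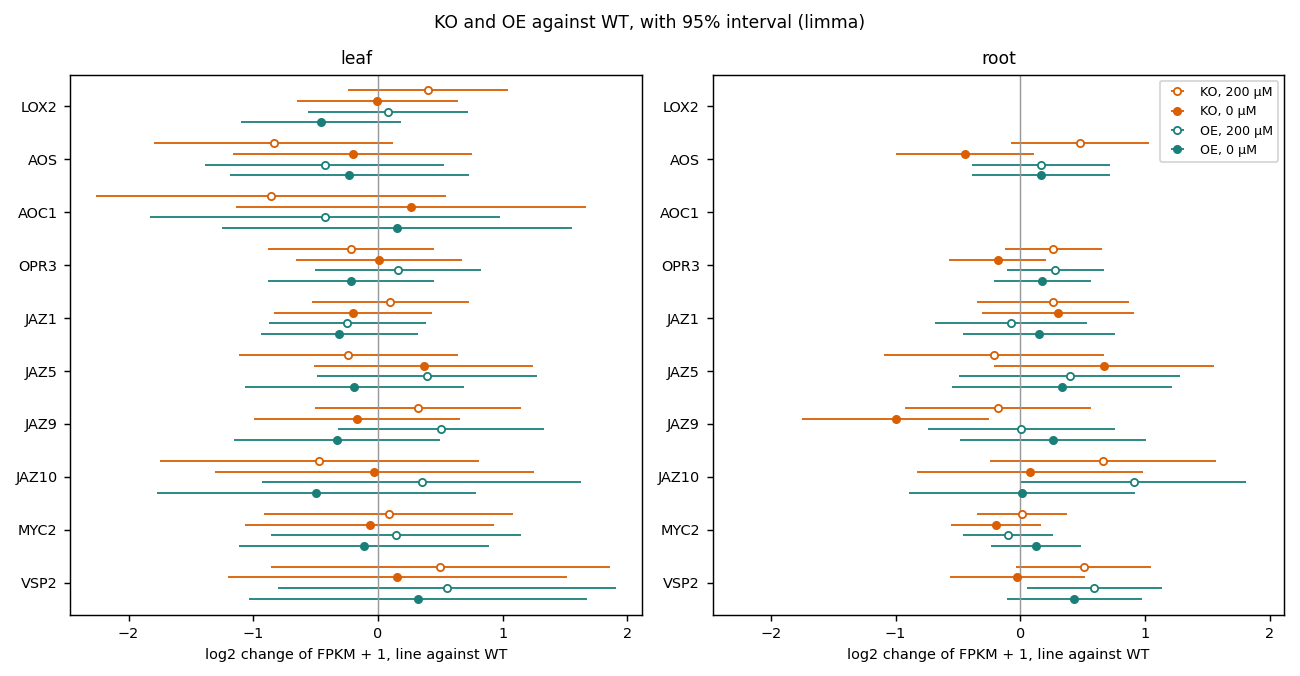
Difference of log2(FPKM + 1) between each line and WT for the members in leaf and root, at 200 µM (open) and 0 µM Pi (filled), with 95% limma intervals from 3 libraries per group; LOX2 and AOC1 were not tested in root. Leaf intervals are wider than root intervals for MYC2 and VSP2, most intervals span 0 (JAZ9 in KO and JAZ10 and VSP2 in OE root are exceptions), and none of the differences was called.

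Replicate libraries of leaf differed more in several members than in most genes. The SD within groups, on the log2 scale, was 0.95 for AOC1, 0.92 for VSP2 and 0.83 for JAZ10, at the 98.1, 97.6 and 96.0 percentile of 16489 leaf genes, whose median was 0.38. MYC2 (0.66) and AOS (0.64) were at the 89.3 and 87.5 percentile, JAZ9 (0.54) and JAZ5 (0.54) at 78.2 and 78.1, and OPR3, LOX2 and JAZ1 between 47.7 and 59.1. In root JAZ10 (0.59), JAZ5 (0.58) and JAZ9 (0.49) were at the 92.8, 92.4 and 86.3 percentile of 19166 genes, while OPR3 (0.21) and MYC2 (0.19) were at 17.4 and 12.3. MYC2 thus spread more than most genes in leaf and less than most in root.

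After each group mean was removed, 37 of the 45 pairs of members correlated positively over 18 leaf libraries, with a median Pearson r of 0.55 and a range of −0.39 to 0.92. Over all pairs of the 16489 leaf genes 55% were positive, with a median of 0.061. MYC2 went with JAZ10 (0.92), JAZ9 (0.90) and OPR3 (0.86), and AOS with AOC1 (0.90). LOX2 and JAZ1 stood aside: LOX2 was at −0.24 with AOS, 0.03 with AOC1, −0.03 with JAZ9 and 0.09 with MYC2, and JAZ1 at −0.39 with AOS, −0.29 with AOC1 and −0.29 with JAZ9. In root 22 of 28 pairs were positive, with a median of 0.25, against 52.1% and 0.019 over all pairs of root genes. Members of a library share its depth and its total, and these correlations describe the libraries only.

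The leaf libraries farthest from their group were both OE at 0 µM. Replicate 2 had 9 of 10 members below the group mean, by 0.95 on average, and replicate 1 had 9 of 10 above it, by 0.66. These deviations are not independent, since those within a group sum to 0. In FPKM, replicates 2 and 1 held 20.6 and 195.7 of AOC1, 12.6 and 48.2 of MYC2, and 53.1 and 387.8 of VSP2. WT replicate 1 at 0 µM was 0.53 above its group mean, with 8 of 10 members higher, and KO replicate 1 at 200 µM 0.58 below. Long genes were low in OE replicate 1 (−0.86) and WT replicate 1 (−0.76) at 0 µM, and also in KO replicate 1 at 200 µM (−0.47), where the members were low. The leaf library with the lowest long genes, WT replicate 2 at 200 µM (−0.99), had members 0.25 below its group mean, with 3 of 10 above. In OE replicate 2 at 0 µM long genes were high (0.60). The part of these library features in the members' levels was not tested.

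**Figure D5:**
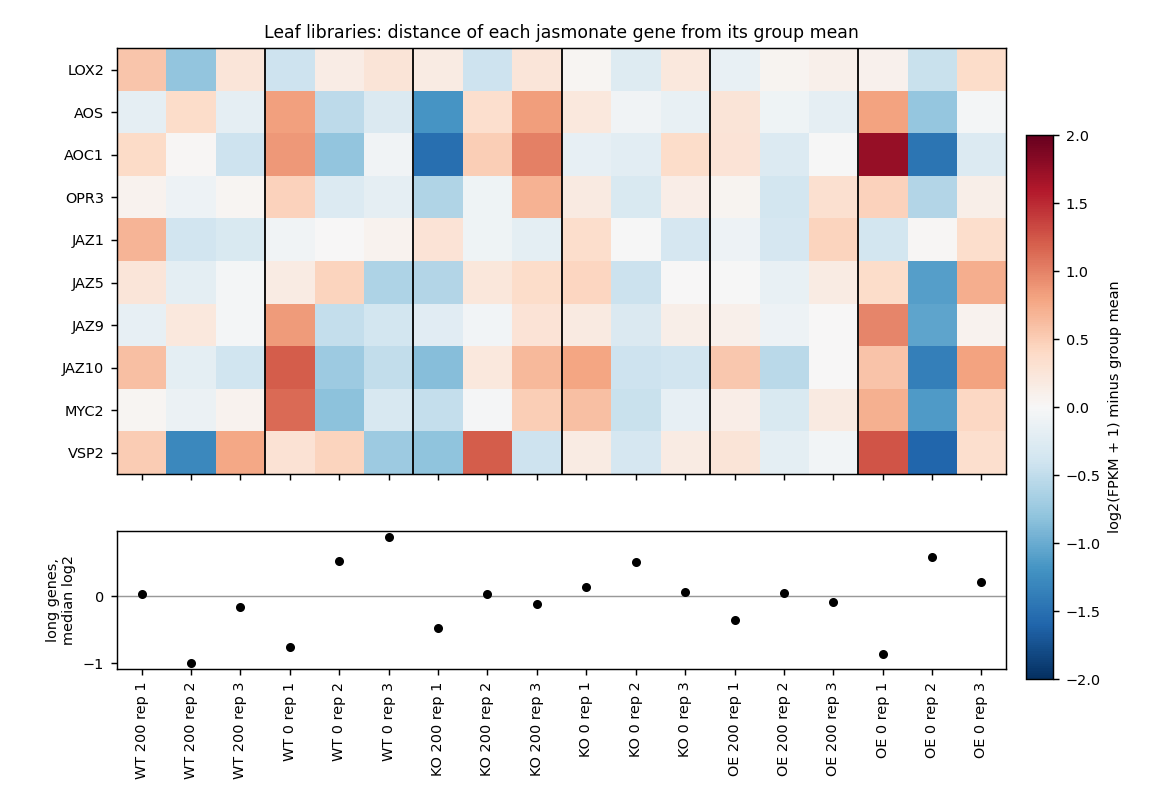
Upper panel, log2(FPKM + 1) of each member in each of the 18 leaf libraries minus its group mean (red higher, blue lower); lower panel, the median log2 level of 280 long genes in the same library against the middle of the organ. OE replicate 2 at 0 µM is blue for 9 of 10 genes and OE replicate 1 at 0 µM red for 9 of 10.

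In leaf the 5 other genes most like the mean standardised level of the 10 members, by Pearson r over 18 libraries, were ARGAH2 (AT4G08870, an arginase, r = 0.87), AT5G38990 (0.82), AT5G08565 (0.80), FMO GS-OX4 (AT1G62570, 0.80) and ARD1 (AT4G14716, 0.80). ARGAH2 averaged 135.0 FPKM in leaf. In root, with 8 members, they were AT1G74070 (0.82) and the photosynthesis genes LHCA3 (AT1G61520, 0.80), LHCB4.1 (AT5G01530, 0.80), PSAE-2 (AT2G20260, 0.79) and ATPC1 (AT4G04640, 0.79). None of the 10 was in the list of 50 other jasmonate genes. That list was fixed by locus and is not a full set of genes that respond to jasmonate. Absence from it does not place a gene outside the pathway.

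Of those 50 genes, 43 were tested in leaf and 41 in root, and in the 18 comparisons within organs 1 was called once. JOX3 (AT3G55970), an oxygenase that hydroxylates jasmonic acid, fell in KO root without Pi. KO root libraries held 12.7, 15.4 and 17.7 FPKM at 200 µM, in order of level, and 0.68, 1.06 and 1.40 FPKM at 0 µM. The groups did not overlap, and the change was −2.99 (SE 0.41, limma adjusted p = 5.0e-04), with limma adjusted p up to 0.00453 over the alternatives. WT root JOX3 was 5.45, 15.7 and 17.6 and then 2.2, 4.08 and 8.07 FPKM, also in order of level (−1.26, SE 0.41, limma adjusted p = 0.108), and OE root gave −1.06 (adjusted p = 0.651). The KO interaction for JOX3 was −1.74 (SE 0.58, limma adjusted p = 0.328), so the KO and WT responses were not shown to differ.

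A list of 10 genes of touch and rapid stress responses, which sampling can move, were followed beside the members. Within organs their changes ranged from −2.61 to 4.83, with 3 calls, named after their values were seen. TCH4, a xyloglucan endotransglucosylase, was higher without Pi in OE leaf (4.83, SE 0.90, limma adjusted p = 0.0159) and in KO root (1.74, SE 0.32, adjusted p = 0.00526), and the factor gene ERF6 was lower in KO root (−0.98, SE 0.22, adjusted p = 0.0203). The TCH4 call in OE leaf was lost in 5 single-library leave-outs (4.49 to 4.95, limma adjusted p = 0.0527 to 0.0988), and the ERF6 call in 4 (−0.97 to −0.83, adjusted p = 0.0653 to 0.0975). Their part in the members' values was not tested. Between WT organs 4 of the 10 were called higher in root at 200 µM, and 5 higher and 1 lower at 0 µM, shares below the 69.7% and 73.4% called over all genes.

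In the other 5 Pi responses of the authors' deposited table no member was called, with adjusted p from 0.107 up. The shares of all 27444 genes called there were 0.109% in WT leaf, 2.24% in KO leaf, 1.91% in OE leaf, 0.911% in WT root and 0.732% in OE root. The smallest of those p-values, 0.107, was that of JAZ5 in KO leaf, at a ratio of 2.96.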

How the data were processed

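Poly(A)-selected, strand-specific RNA-seq was made from 36 libraries, per the labels' protocols. The submitters' processing notes name Trimmomatic, HISAT2 2.2.1, DESeq2 and the build TAIR10. The sources used here give neither the counting tool nor its strand setting. Values deposited per library are FPKM, judged from the values: multiplied by coding length in kb they summed to 974165 to 1016890 per library. Steps between low values gave the depth, with 99.9% to 100% of low values per library whole to 0.1 read. The labels name no molecular identifiers, so intervals and floors cover counting error only. The authors deposited, per the file headers, a ratio between Pi levels and an adjusted p-value for each of 6 Pi responses. These entered no test.

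FPKM were used as deposited on the scale log2(FPKM + 1). Genes averaging 1 FPKM or more over the 18 libraries of an organ, or over all 36 for root against leaf, entered a limma fit (3.58.1, R 4.3.3, with trend) with 1 mean per group, tested on simulated data. A gene was called at an adjusted p under 0.05 (Benjamini-Hochberg over all genes of a comparison). Alternatives were a pseudocount of 0.1, no filter, median-of-ratios scaling, the groups of a comparison alone, no trend, the replicate number as a block, leaving out each library, and, chosen after seeing the data, leaving out the libraries low in long genes. All libraries carry the same batch label. In OE against WT at 0 µM in leaf all 3 same-numbered pairs deviated together (0.72, 0.54 and 0.17), and the block changed no call there. That block is shared by all leaf groups, and at 200 µM the pairs of OE and WT leaf were at −0.25, −0.32 and −0.16. It therefore cannot remove a pairing held by the 0 µM groups alone, and no paired fit of those groups was run.

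The 10 genes and the lists (50 other jasmonate genes, 10 touch and rapid stress genes, and organ markers) were chosen with earlier results of these data known. Named genes were the 10 members, up to 4 called genes of the jasmonate list per comparison by smallest adjusted p, and the 5 genes most like the members per organ; others are said to be named after their values were seen. Sequences and gene positions are from RefSeq TAIR10.1 and its annotation, to which all 10 loci matched, and 74 of 79 listed genes had the same name in its table. Each window ends at the base before the annotated gene start. Some items are not reported here.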

Additional observations from a re-analysis of the deposited data

How the results depend on the processing

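Of 279 recomputed counts of called members, 278 kept within 1.5 times of the reported count, and the exception was KO root without Pi, where leaving out single libraries gave 0 to 1 called members, the 1 being JAZ9 without KO replicate 3 at 0 µM. Of 2540 recomputed member changes, none reversed a call, 10 lost one and 3 gained one, all but JAZ9 in KO root between WT organs and given with their genes, except MYC2 at 0 µM, which also gained one without the libraries low in long genes (1.10, limma adjusted p = 0.00464). Only the 8 values at 200 µM and 7 at 0 µM called between WT organs could lose a call. All 10 losses fell on JAZ5 at 200 µM and VSP2 at both Pi levels. The total of 2540 includes uncalled values, so it does not measure how often a call held. Of 205 recomputed changes of the other named genes, 9 lost the call, 5 for TCH4 in OE leaf (limma adjusted p up to 0.0988) and 4 for ERF6 in KO root (up to 0.0975), each without 1 library.

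With the replicate block, 8 and 7 members were called between WT organs and 0 in each comparison within organs. The check correlated deviations of same-numbered libraries over genes: in 1 of 16 comparisons all 3 pairs were over 0.1. The correlations ran from −0.35 to 0.72. Between WT organs at 200 µM they were 0.14, 0.38 and 0.04 for replicates 1, 2 and 3. Whether same-numbered libraries share more than a number in the other comparisons was not settled by this check.

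Counts of all called genes, the background above, moved more. Their lowest and highest over the alternatives, beside the reported count, were 0 and 23 for 1 in WT leaf (23 without WT replicate 1 at 0 µM), 55 and 182 for 182 in KO leaf, 27 and 409 for 132 in OE leaf (409 without the libraries low in long genes), 8 and 1821 for 376 in WT root, 303 and 760 for 676 in KO root, and 11 and 47 for 45 in OE root. Against WT they were 8 and 170 for 144 (KO) and 29 and 76 for 63 (OE) in leaf at 200 µM, 5 and 922 for 6 (KO) and 6 and 361 for 8 (OE) in root at 200 µM, and 5 and 29 for 10 (KO) and 5 and 13 for 13 (OE) in root at 0 µM. Interactions gave 0 and 45 for 21 (KO) and 9 and 91 for 58 (OE) in leaf, and 0 and 153 (KO) and 0 and 4 (OE) for 0 in root. The highs of 1821, 922, 361, 153 and 4 came without WT root replicate 1 at 200 µM, and the cause was not tested. With 3 libraries per group, a missing call does not show that a difference was absent. The printed intervals give the range of differences that the fits allow.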
